A study of Homo sapiens with 36 samples.

Results

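Platinum-resistant A2780 cells (cis) were compared with the sensitive parental A2780 cells (wt) while both were under carboplatin. A2780 is a human ovarian cancer cell line, and the cis line was obtained from the parental one by chronic exposure to cisplatin. The 6 libraries compared, of 36 in the series, were chosen by their labels alone: cis carbo comprised libraries 16, 17 and 18, and wt carbo comprised libraries 4, 5 and 6. Both groups carried the carbo treatment and neither was deprived of serine and glycine. The untreated libraries of the same lines, cis (13 to 15) and wt (1 to 3), were used only to show where the contrast under the drug differed from that without it. Each group is 1 cell line, so any difference found is one between these lines. The labels give the carboplatin dose as 6 M, while other assays of the study used 6 µM, and no time point is stated for the sequenced cells in particular beyond the methods' general default of day 5. In the study's legends the replicates of the sequencing are technical ones, 3 to a condition, so p-values here measure the spread between libraries and not between independent cultures. The wt libraries bear the numbers 1 to 12 and the cis libraries the numbers 13 to 24, so line and library order cannot be told apart.

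Carboplatin is a platinum compound that forms adducts and crosslinks on DNA. Such lesions block replication forks, activate the ATR and ATM kinases and stabilise p53, which induces the CDK inhibitor p21 (CDKN1A), its own antagonist MDM2 and pro-apoptotic genes. A cell that has been stopped in this way lowers the transcripts of mitosis and of S phase, whose promoters are held silent by the DREAM complex of RB-family proteins, and crosslinks are removed by nucleotide excision repair, the Fanconi pathway and homologous recombination. Resistant cells are known to differ in platinum uptake and export, thiol metabolism, repair and the threshold for apoptosis, and the genes of these processes were therefore described as lists.

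Total counts on genes ran from 13074937 (cis carbo library 17) to 18987036 (wt carbo library 4). Mitochondrial transcripts took 2.996% of the counts in library 17 and 4.338% to 5.292% in the other 5 libraries. Counts of library 17 lay farther from those of its group than any other pair of the 6, with a mean chi-square over genes of 10.29 against library 16 and 4.729 against library 18, compared with 1.359 to 1.678 in wt carbo. No pair agreed within sampling noise, and each library was counted once. Between 23613 and 24118 genes had a count in the wt carbo libraries and between 21420 and 21697 in the cis carbo libraries. Levels are given as CPM, a gene's counts relative to the TMM-scaled total of its library, as mean ± SD of 3 libraries, and log2 fold changes as cis carbo over wt carbo ± SE. A gene was called at an adjusted p-value under 0.05 (edgeR quasi-likelihood test, Benjamini-Hochberg adjustment over all genes tested). Without library 17, 12238 of 15094 genes were called, against 12018 of 14668 with it.

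Most genes differed between the lines under carboplatin. Of 14668 genes tested, 12018 were called (81.9%), with 5914 higher in cis carbo (40.3%) and 6104 lower (41.6%). The CPM ranges of the groups did not overlap for 12101 genes (82.5%), and the median log2 fold change of all genes tested was -0.02. Called genes whose log2 fold change was 1 or more in size numbered 4543 (31% of those tested), 1874 of them higher and 2669 lower in cis carbo. The excess of lower genes grew with the size of the change, since 735 genes were higher and 1499 lower by at least 2 on the log2 scale, and 403 higher and 1070 lower by at least 3. Because these shares form the background, the direction and size of a list's changes are read beside those of all genes. The RNA was taken in bulk, so fewer cells in a given state and less of a transcript per cell cannot be told apart.

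The same contrast without the drug called 11322 of 14431 genes (78.5%, with 39.4% higher and 39.1% lower in cis) and had no library in common with the contrast under carboplatin. Among the 14032 genes tested in all fits, 8084 were called in the same direction with and without carboplatin. Another 1480 were called in opposite directions, 728 of them higher and 752 lower in cis under the drug. Across genes, which are not independent replicates, both contrasts correlated with a Pearson r of 0.916, and the median absolute log2 fold change was 0.544 with and 0.431 without carboplatin. The difference between the contrasts was tested as the interaction of line and carboplatin over 12 libraries, which called 8807 of 15300 genes (57.6%), 4641 with a positive value (30.3%) and 4166 with a negative one (27.2%).

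**Figure D1:**
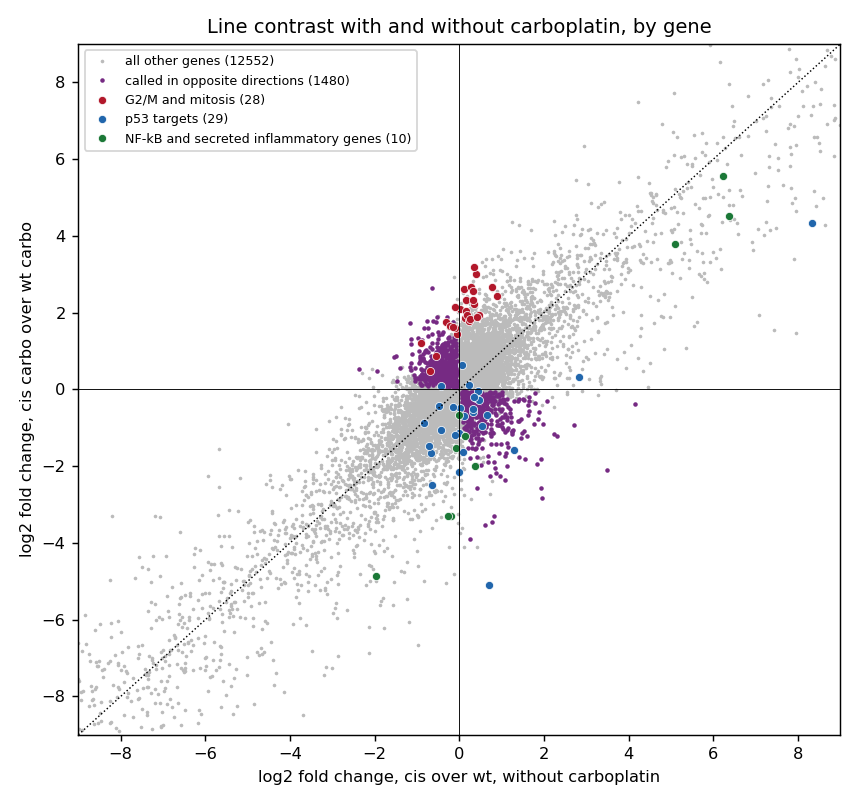
Each point is 1 of 14032 genes, with the log2 fold change of cis over wt without carboplatin on the x axis and that of cis carbo over wt carbo on the y axis. The dotted line marks equal values, and 191 genes lie beyond the axes, which end at 9. Mitotic genes (red) sit high above the line, while most p53 targets (blue) and genes of the NF-kB list (green) lie below it, and the 1480 genes called in opposite directions are in purple.

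Mitotic genes were higher in cis carbo. All 28 genes of the G2/M list were called higher in cis carbo, 26 of them with a log2 fold change of at least 1, and the list's median was 1.99 against -0.02 over all genes. Without carboplatin 17 of the 28 were called higher in cis and 10 lower, with a median of 0.16, and the interaction was called positive for all 28. The summed level of the list was 4785 ± 60.1 CPM in wt, 1240.4 ± 13 in wt carbo, 5237 ± 36.6 in cis and 4677 ± 71.6 in cis carbo. Thus the wt carbo libraries stood apart from the other 9, and wt carbo held the lowest mean of the 4 groups for each of the 28 genes, as it did for 32.7% of all genes tested.

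KIF20A, a kinesin of the central spindle, had 13.1, 12.6 and 11.5 CPM in the wt carbo libraries and 116, 112 and 114 CPM in the cis carbo libraries. The groups were far apart, and the cis carbo level lay near that of untreated wt cells (113 ± 1.3 CPM) and below that of untreated cis cells (141 ± 4.74 CPM). Its log2 fold change was 3.20 ± 0.05 (edgeR adjusted p = 4.64e-48), the largest of the list, compared with 0.33 ± 0.03 without carboplatin. CENPA, the histone H3 variant of centromeres, measured 4.16, 4.01 and 3.63 CPM in wt carbo and 31.9, 33.3 and 29.6 CPM in cis carbo, a log2 fold change of 2.99 ± 0.09. PLK1, a kinase that drives mitotic entry and exit, was at 28.4, 28.7 and 28.4 CPM in wt carbo and 177, 177 and 188 CPM in cis carbo. The cis carbo libraries lay close together for these genes, library 17 included. They did not for MKI67, the Ki-67 proliferation antigen, where cis carbo had 621, 747 and 629.9 CPM, the middle value being library 17, against 101, 105 and 107 CPM in wt carbo. The smallest difference of the list was that of CDK1, the mitotic kinase itself, at 112 ± 0.518 CPM in wt carbo and 155 ± 4.9 CPM in cis carbo (0.47 ± 0.03 on the log2 scale), and this gene was lower in cis than in wt without the drug (-0.71 ± 0.03).

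Many mitotic promoters carry the CCAAT box (CCAAT), which NF-Y binds, and the CHR element (TTTGAA), which the DREAM and B-MYB complexes bind, and their letters were looked for on both strands in the 250 bases before the gene start of RefSeq's promoter table (build GRCh38.p14). Of the 28 genes 22 had an entry. CCAAT was found in 19 of them (86.4%) against 33% of all 27305 promoters of this length, TTTGAA in 13 (59.1%) against 13.6%, and both in 12 (54.5%) against 4.85%. These are matches of letters and not measured binding. The shares describe the genes chosen for the list and are no result of the contrast. The promoters of CENPA, MKI67 and PLK1 are shown because they had the largest fold changes among the members with both elements, with CCAAT and TTTGAA of either strand in capitals. In MKI67 a TTTGAA and a reversed CCAAT overlap. By exact match to GRCh37, the build of the counts, they lie at chr2:27008674-27008923 on the plus strand, chr10:129924688-129924937 on the minus strand and chr16:23689960-23690209 on the plus strand, and all are printed 5′ to 3′ in the direction of its gene.
CENPA: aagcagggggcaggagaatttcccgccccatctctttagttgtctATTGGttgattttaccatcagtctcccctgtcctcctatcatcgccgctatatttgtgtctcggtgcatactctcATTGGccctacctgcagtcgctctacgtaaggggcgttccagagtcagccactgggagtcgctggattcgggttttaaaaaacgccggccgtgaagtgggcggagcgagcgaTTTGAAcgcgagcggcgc
MKI67: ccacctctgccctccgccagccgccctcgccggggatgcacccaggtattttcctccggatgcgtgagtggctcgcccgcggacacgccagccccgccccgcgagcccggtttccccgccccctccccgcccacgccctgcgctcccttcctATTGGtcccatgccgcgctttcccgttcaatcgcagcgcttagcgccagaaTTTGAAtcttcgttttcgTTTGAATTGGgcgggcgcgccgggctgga
PLK1: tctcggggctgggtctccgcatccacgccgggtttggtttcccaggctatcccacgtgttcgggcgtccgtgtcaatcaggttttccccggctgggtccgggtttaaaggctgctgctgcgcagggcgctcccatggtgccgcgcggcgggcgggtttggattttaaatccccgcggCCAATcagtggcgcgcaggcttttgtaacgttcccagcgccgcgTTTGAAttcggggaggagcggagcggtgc

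Replication genes followed the same pattern with smaller values. Of 28 members, 26 were called higher in cis carbo and 1 lower, with a median of 1.08 against -0.04 without the drug, and the interaction was positive for 25 and negative for 1. E2F1, a transcription factor of S-phase genes, measured 14.2, 14 and 15.5 CPM in wt carbo and 61.7, 63.4 and 58.2 CPM in cis carbo (2.06 ± 0.06 on the log2 scale). Subunits of the MCM helicase had log2 fold changes from 0.28 (MCM5) to 1.30 (MCM2), and the thymidine kinase TK1 1.52 ± 0.05. The E-type cyclins, which activate CDK2, departed from this. CCNE2 was 2.05 ± 0.09 higher with and 2.12 ± 0.09 higher without carboplatin, with no called interaction (edgeR adjusted p = 0.751), and CCNE1 was 69.9 ± 1.78 CPM in wt carbo and 61.6 ± 0.349 CPM in cis carbo, the only called member that was lower. TYMS, thymidylate synthase, was not called (-0.05 ± 0.03).

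**Figure D2:**
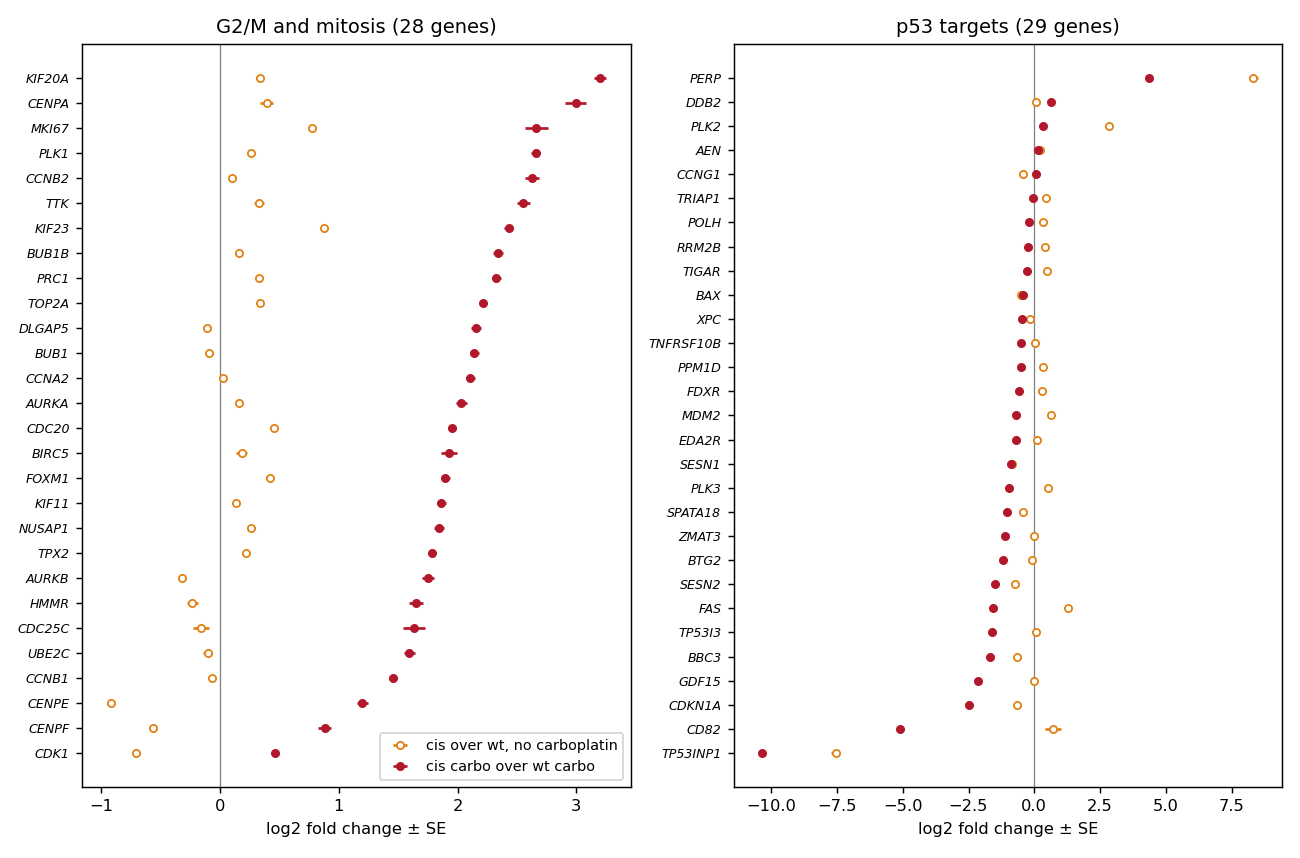
Log2 fold changes of cis over wt ± SE for the 28 genes of the G2/M list (left) and the 29 tested p53 targets (right), with carboplatin (filled, red) and without it (open, orange). All filled points of the left panel lie above 0 and to the right of the open ones, and 23 of the 29 genes of the right panel were called lower in cis under the drug.

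Targets of p53 ran the other way. Of 29 tested, 23 were called lower and 5 higher in cis carbo, with a median of -0.68, whereas without carboplatin 13 were higher and 10 lower with a median of 0.08. The interaction was negative for 24 of the 29. Their summed level was 2131 ± 9.44 CPM in wt and 2209 ± 12.9 CPM in cis, and 6727 ± 55.7 CPM in wt carbo and 3246 ± 22.6 CPM in cis carbo. The highest mean of the 4 groups was that of wt carbo for 24 of the 29 (82.8%), against 34.2% of all genes tested. Cis carbo was thus above both untreated groups in the sum and below wt carbo.

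CDKN1A, which encodes p21, had 1772, 1791 and 1764 CPM in the wt carbo libraries and 315, 322 and 317 CPM in the cis carbo libraries. Its level without the drug was 140.4 ± 2.72 CPM in wt and 89.6 ± 0.871 CPM in cis, so both lines were higher with carboplatin and wt by far the more. The log2 fold change was -2.49 ± 0.02 under carboplatin (edgeR adjusted p = 2.43e-60) and -0.64 ± 0.03 without it, with an interaction of -1.83 ± 0.03. MDM2, the ubiquitin ligase that removes p53, measured 448, 468 and 464 CPM in wt carbo and 274, 293 and 298 CPM in cis carbo (-0.68 ± 0.03), while without the drug it was 0.65 ± 0.03 higher in cis. The same reversal of order held for FAS, a death receptor, at -1.58 ± 0.04 with and 1.29 ± 0.07 without carboplatin. GDF15, a secreted stress factor, was 881 ± 15.7 CPM in wt carbo and 199 ± 11.8 CPM in cis carbo, and did not differ by the test without the drug (-0.02 ± 0.05, edgeR adjusted p = 0.73).

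Single p53 targets departed from this in level or direction. TP53INP1, a p53 cofactor gene, had 144, 147 and 151 CPM in wt carbo and 0.226, 0.0752 and 0 CPM in cis carbo, and was as low in untreated cis cells (0.171 ± 0.0544 CPM). CD82, a tetraspanin, measured 45.4, 46.7 and 46 CPM in wt carbo and 1.87, 0.902 and 1.1 CPM in cis carbo, but only 0.905 ± 0.444 CPM in untreated wt cells. PERP, a desmosomal and apoptotic effector, was higher in cis carbo at 41, 40.4 and 41.1 CPM against 1.84, 2.12 and 2.05 CPM. Its untreated levels were 0.125 ± 0.0784 CPM in wt and 42.7 ± 1.18 CPM in cis, and its interaction was negative (-3.97 ± 0.36), as for most of the list. The damage-recognition gene DDB2 was also higher in cis carbo, at 112 ± 1.01 against 72.2 ± 1.3 CPM (0.62 ± 0.03). Unlike PERP, it showed no called difference without the drug (68.5 ± 1.89 CPM in wt and 71.3 ± 1.78 CPM in cis), and its interaction was positive (0.57 ± 0.05). PLK2, AEN and CCNG1 were the other members called higher, by 0.33, 0.12 and 0.08 on the log2 scale. TRIAP1 was the only tested member not called (-0.04 ± 0.04), and 2 members were not tested.

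**Figure D3:**
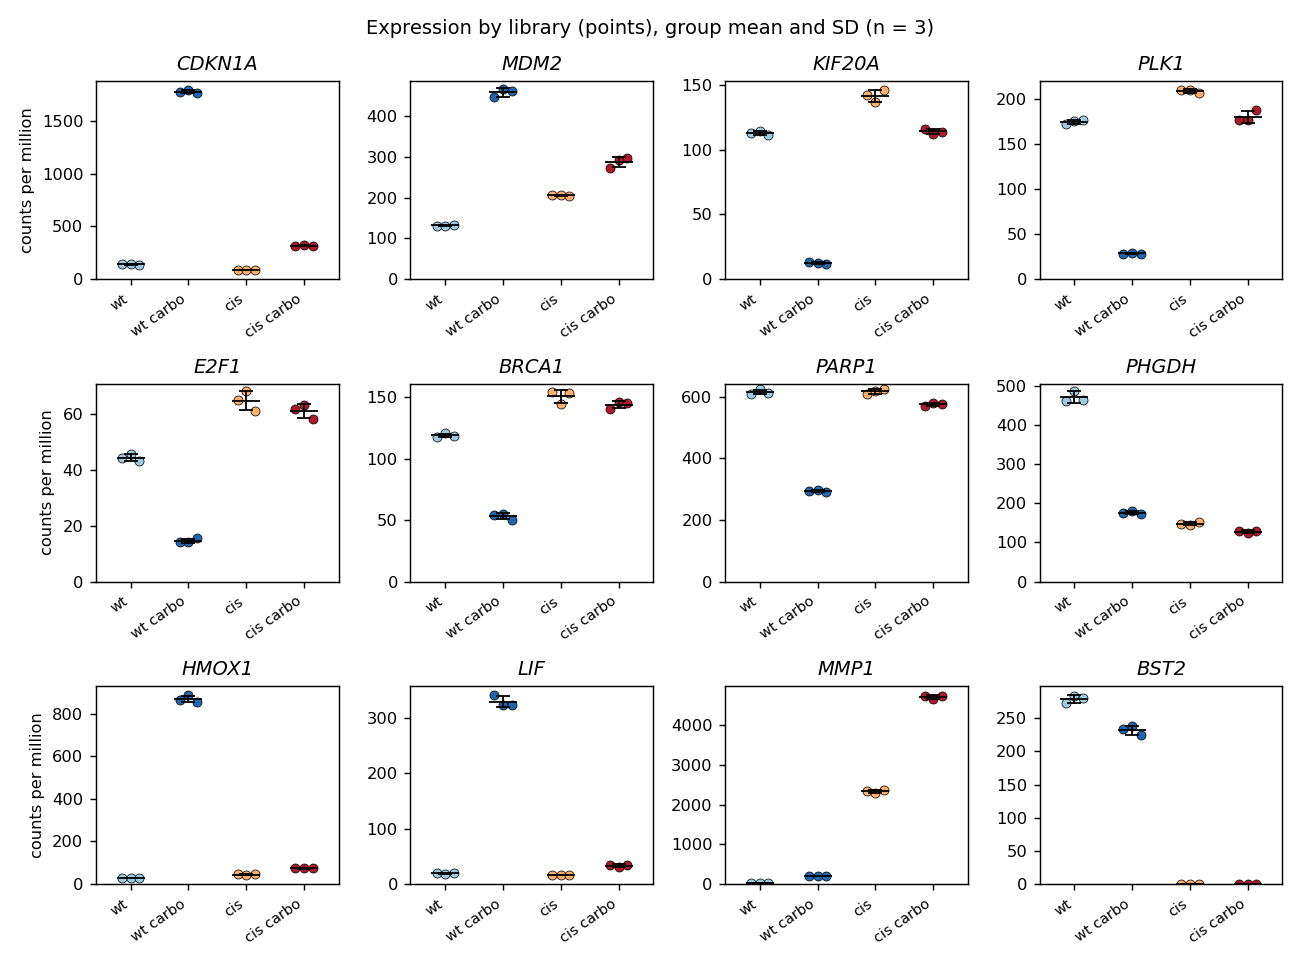
CPM of 12 genes in the 3 libraries of wt, wt carbo, cis and cis carbo (points), with group mean and SD (n = 3), each panel on its own linear axis from 0. The wt carbo libraries are the highest for CDKN1A, MDM2, HMOX1 and LIF and the lowest for KIF20A, PLK1, E2F1, BRCA1 and PARP1. MMP1 is highest in cis carbo, and BST2 is near 0 in both cis groups.

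Among CDK inhibitors and G1 cyclins 5 of 15 tested were called higher and 9 lower in cis carbo (median -0.62). Beside CDKN1A, the INK4 inhibitor CDKN2C was lower (-1.33 ± 0.09), and the inhibitor CDKN2D (1.26 ± 0.14) and the pocket protein gene RBL1 (1.75 ± 0.07) were higher. RB1 itself was lower both with (-1.23 ± 0.04) and without (-1.20 ± 0.04) carboplatin. It lies on chromosome 13, whose genes were lower as a whole (given last). CCND1, cyclin D1, turned from 0.51 ± 0.03 without to -0.85 ± 0.02 with the drug.

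Of 16 checkpoint genes 10 were called higher and 4 lower (median 0.51). The apical kinases showed no called difference, with 179 ± 4.85 and 165 ± 21 CPM of ATM and 66.7 ± 1.69 and 68.7 ± 2.22 CPM of ATR in wt carbo and cis carbo. CHEK1, the kinase downstream of ATR, measured 19, 21.3 and 19.6 CPM in wt carbo and 71.9, 72.9 and 76.6 CPM in cis carbo (1.89 ± 0.05). CDC25B, a phosphatase that activates CDK1, had 55.6, 53.9 and 50.8 CPM in wt carbo and 198, 201 and 198 CPM in cis carbo (1.89 ± 0.03). Without the drug CHEK1 was higher in cis by 0.52 ± 0.04 and CDC25B by 1.33 ± 0.03. Their interactions were 1.38 ± 0.06 and 0.57 ± 0.05. WEE1, the kinase that inhibits CDK1, was lower in cis carbo at 50.1, 47.7 and 48.1 CPM against 110.2, 109 and 108 CPM in wt carbo. In this last gene the untreated levels (54.7 ± 0.66 CPM in wt and 50.8 ± 1.16 CPM in cis) lay close to that of cis carbo. The clamp subunit HUS1 was lower too (-1.05 ± 0.06).

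Most genes of the Fanconi pathway and homologous recombination were higher in cis carbo. In that list 23 of 27 were called higher and 2 lower, 19 of them by at least 1 on the log2 scale, with a median of 1.26 against 0.16 without the drug. The interaction was positive for 21 and negative for none. FANCE, a subunit of the Fanconi core complex, had 5.24, 4.43 and 5.74 CPM in wt carbo and 26.3, 25.4 and 25 CPM in cis carbo (2.31 ± 0.09). EXO1, an exonuclease of end resection, was at 20.8 ± 1.22 and 74.3 ± 2.45 CPM (1.84 ± 0.05). BRCA1 measured 54.3, 55 and 50.4 CPM in wt carbo and 141, 146 and 145 CPM in cis carbo, with 119 ± 1.59 CPM in wt and 151 ± 5.13 CPM in cis without drug. Transcripts of this list, of replication and of mitosis moved together between the groups, and the part of cell cycle position in the levels of the repair genes was not tested. The exceptions were FANCF (-0.75 ± 0.09) and the nuclease gene FAN1 (-0.68 ± 0.07), which were lower by about as much without the drug (-0.66 ± 0.09 and -0.66 ± 0.06).

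Nucleotide excision repair showed no common direction, with 8 of 18 tested called higher, 7 lower and a median of 0.02. This split was near that of all genes, 40.3% higher and 41.6% lower. The helicase gene ERCC2 was higher, at 66.3 ± 1.78 CPM in wt carbo and 133 ± 0.481 CPM in cis carbo. ERCC6, which acts in transcription-coupled repair, was lower (-1.13 ± 0.11 with and -1.04 ± 0.13 without the drug). ERCC1, a subunit of the incision nuclease often examined in platinum resistance, was slightly lower (202 ± 1.62 against 171 ± 1.6 CPM). Of 6 tested mismatch repair genes 4 were higher and 1 lower, MSH6 (-0.65 ± 0.03). Among 11 translesion synthesis genes 8 were higher and 2 lower (median 0.56), with the largest value for the polymerase POLQ (1.34 ± 0.05), followed by REV3L, the catalytic subunit of polymerase zeta (1.07 ± 0.06 with and 1.04 ± 0.05 without the drug).

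Of 12 tested transporters of platinum and copper 8 were called (66.7%, against 81.9% of all genes), 3 higher and 5 lower. SLC31A1, the copper importer CTR1, had 137, 135 and 141 CPM in wt carbo and 143, 136 and 145 CPM in cis carbo, ranges that overlapped (0.04 ± 0.03, edgeR adjusted p = 0.244). The test called it with total counts in place of TMM and without library 17, at 0.09 and 0.08 on the log2 scale. The copper ATPase ATP7B was lower in cis carbo, 22, 21.7 and 21.7 CPM against 44.3, 49.4 and 46.7 CPM (-1.10 ± 0.06), and lies on chromosome 13. ABCC5, an exporter, was lower (-0.87 ± 0.03), and ABCC4 and ABCC1 were higher by 0.42 and 0.19. Larger values belonged to exporters at low levels, ABCG2 at 1.62, 1.52 and 1.46 CPM in wt carbo and 4.53, 5.26 and 3.98 CPM in cis carbo, and ABCC3 at 1.35, 2 and 1.46 CPM in wt carbo and 0, 0.0752 and 0.0612 CPM in cis carbo. ABCB1, the multidrug exporter, had at most 1 count in any of the 12 libraries.

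Thiol and redox genes were split, 7 called higher and 8 lower of 19, near the shares of all genes (40.3% and 41.6%). HMOX1, heme oxygenase 1, was the largest among those lower, with 863, 888 and 857 CPM in wt carbo and 73.2, 77.6 and 74.1 CPM in cis carbo (-3.54 ± 0.03, edgeR adjusted p = 3.1e-63). Without the drug it was 29.6 ± 0.977 CPM in wt and 44.7 ± 0.642 CPM in cis, so the order of the lines was the opposite (0.60 ± 0.05). SLC7A11, the cystine importer that feeds glutathione synthesis, was the largest among those higher, with 75.8, 80.3 and 75.4 CPM in cis carbo against 12.4, 12.6 and 13.6 CPM in wt carbo (2.57 ± 0.06). The NRF2 gene NFE2L2 and its targets NQO1, GCLM and TXNRD1 were lower, with log2 fold changes of -1.04, -1.30, -0.80 and -0.64, while GCLC and GSR were higher by 0.63 and 0.55. GSTP1, an abundant glutathione transferase, differed by -0.06 only. GSTM1 and GSTM2, near-identical neighbours between which reads may be split, were 0.76 and -1.51.

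In the BCL2 family and the caspase inhibitors all 17 tested were called, 8 higher and 9 lower. Over all genes 81.9% were called, 40.3% higher and 41.6% lower, so the split of this list was near that background. BIRC3, an inhibitor of apoptosis induced by NF-kB, had 199.6, 201 and 207 CPM in wt carbo and 21.1, 19.8 and 20.3 CPM in cis carbo (-3.31 ± 0.04), against 9 ± 0.343 CPM in wt and 15.7 ± 1.15 CPM in cis. MCL1, an anti-apoptotic member, was 1204 ± 8.18 CPM in wt carbo and 394 ± 13.1 CPM in cis carbo (-1.62 ± 0.02). Pro-apoptotic BH3-only genes differed in direction. BBC3 (PUMA) and BMF were lower (-1.67 and -2.65), and PMAIP1 (NOXA) was higher, 25.5, 23.4 and 21.9 CPM against 3.51, 3.89 and 2.64 CPM (2.81 ± 0.10). Without the drug the levels of PMAIP1 were lower, 1.51 ± 0.241 CPM in wt and 16.2 ± 0.878 CPM in cis, and the log2 fold change larger (3.41 ± 0.13). The effector gene BAK1 was lower (-1.28), as was BAX (-0.43).

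The study asked about serine and NAD metabolism in these cells. Of 9 tested genes of serine synthesis and neutral amino acid transport, 6 were called higher and 3 lower in cis carbo (median 0.71), and the interaction was positive for 6 and negative for 1. PHGDH, the first enzyme of serine synthesis, had 175, 181 and 174 CPM in wt carbo and 129, 124 and 129 CPM in cis carbo. The groups did not overlap, and the log2 fold change was -0.47 ± 0.03 (edgeR adjusted p = 1.13e-20), compared with -1.66 ± 0.03 without carboplatin, where wt had 472 ± 14.3 CPM and cis 148 ± 3.66 CPM. The gap between the lines was thus narrower under the drug (interaction 1.20 ± 0.04), with the larger step between the wt groups. PHGDH lies on chromosome 1 beside windows whose genes were mostly lower in cis carbo (given last). PSAT1, the second enzyme, changed order, with 458, 446 and 449 CPM in wt carbo and 694, 676 and 694 CPM in cis carbo (0.61 ± 0.02), against -0.34 ± 0.02 without the drug. PSPH, the last enzyme, was higher in cis carbo by 0.81 ± 0.04.

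SLC1A4, a serine and alanine exchanger, was at 31.5, 30 and 29.2 CPM in wt carbo and 85.8, 82.9 and 82.1 CPM in cis carbo (1.46 ± 0.04), a smaller gap than without the drug (1.86 ± 0.05). The glutamine carrier SLC1A5 had a wider one, 191 ± 6.19 against 421 ± 6.3 CPM (1.14 ± 0.03 with and 0.35 ± 0.02 without). SLC38A2 (-0.17) and SLC7A10, at 1.56 ± 0.0915 CPM in wt carbo and 0.388 ± 0.259 CPM in cis carbo, were the members lower beside PHGDH. In folate one-carbon metabolism 13 of 18 were higher and 1 lower (median 0.56). Cytosolic SHMT1, which splits serine, was 13.1 ± 0.217 CPM in wt carbo and 44.5 ± 3.37 CPM in cis carbo (1.76 ± 0.06), mitochondrial SHMT2 and MTHFD2 were higher by 0.68 and 1.04, and the folate carrier SLC19A1 by 1.05.

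ATF4, the transcription factor that induces serine synthesis under amino acid stress, was 359 ± 5.92 CPM in wt carbo and 412 ± 10.5 CPM in cis carbo (0.20 ± 0.02), against -0.33 ± 0.02 without the drug. With its targets, 17 of 24 were called higher and 7 lower (median 0.48, against -0.33 over the 25 tested without the drug). CTH, which makes cysteine, was higher at 34.1, 33.6 and 35.8 CPM against 4.81, 5.46 and 3.81 CPM, and ASNS, asparagine synthetase, at 222 ± 7.37 against 145 ± 2.79 CPM. Of these, CTH was also higher in cis without the drug (2.34 ± 0.07). On the other side, NUPR1 and ATF3, stress-response regulators, were lower (-3.94 ± 0.07 and -2.44 ± 0.06), and so were SESN2 (-1.49), which p53 also induces, and DDIT4 (-0.84).

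PARP1, which consumes NAD at DNA breaks, measured 293, 299 and 292 CPM in wt carbo and 571, 581 and 576 CPM in cis carbo (0.96 ± 0.02, edgeR adjusted p = 4.16e-40). Untreated wt cells had 616 ± 7.47 CPM and untreated cis cells 619 ± 8.04 CPM, a difference that was not called (0.01 ± 0.02), and the interaction was 0.96 ± 0.03. The wt carbo libraries alone were low. PARP2 followed (0.95 ± 0.05), while the interferon-induced PARP9 and PARP14 were lower (-2.82 ± 0.06 and -2.05 ± 0.03). Over the list of PARPs, PARG and sirtuins 8 of 21 were higher and 12 lower. SIRT1, an NAD-dependent deacetylase, was higher in cis with (1.97 ± 0.03) and without (2.27 ± 0.03) carboplatin.

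Of the NAD synthesis genes 5 of 10 were higher and 4 lower, against 40.3% and 41.6% of all genes. NAMPT, the rate-limiting enzyme of the salvage route from nicotinamide, had 60.9, 65.7 and 68 CPM in wt carbo and 67.6, 61.8 and 57.3 CPM in cis carbo, overlapping ranges (-0.06 ± 0.05, edgeR adjusted p = 0.309). It was called without cis carbo library 16 only, at -0.12. NAPRT, which starts from nicotinic acid, was low and higher in cis carbo, 9.39, 7.89 and 9.49 CPM against 4.33, 5.46 and 4.33 CPM. QPRT, which links tryptophan breakdown to NAD, was lower at 1.64, 1.65 and 1.84 CPM against 38.2, 41.9 and 40.5 CPM (-4.55 ± 0.10), as it was without the drug (-5.80 ± 0.08). NMNAT2, an adenylyltransferase, was lower only with carboplatin in these fits, at 33.7 ± 1.81 CPM in wt carbo and 5.57 ± 0.368 CPM in cis carbo, and the interaction was called (-2.63 ± 0.17). The transhydrogenase NNT was higher (1.65 ± 0.04 with and 0.96 ± 0.03 without the drug).

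In the tricarboxylic acid cycle 19 of 31 tested genes were higher and 8 lower, with a small median (0.21) and a positive interaction for 22. The NADP-dependent isocitrate dehydrogenases stood out. IDH1 had 38.8, 35.9 and 38.2 CPM in wt carbo and 118, 115 and 115 CPM in cis carbo (1.62 ± 0.04), while without the drug the lines did not differ by the test (-0.06 ± 0.03), and mitochondrial IDH2 differed by 1.31 ± 0.06. The cytosolic malic enzyme ME1 had 16.9, 17.1 and 15.8 CPM in wt carbo and no count in any cis or cis carbo library, which is at least 73.5-fold lower against 3 counts per library. Glycolysis and its side branches had no common direction, 15 of 31 higher and 14 lower, against 40.3% and 41.6% of all genes. The platelet-type phosphofructokinase PFKP was higher with (2.82 ± 0.03) and without the drug (1.96 ± 0.03). The lactate exporter SLC16A3 was 31.2 ± 0.0506 CPM in wt carbo and 0.295 ± 0.211 CPM in cis carbo. Its untreated levels were alike, 30.1 ± 2.4 CPM in wt and 0.23 ± 0.113 CPM in cis, and its interaction was not called. GPD1L and GPD2, of glycerol phosphate metabolism, were 1.71 and -1.44, against 1.06 and -2.18 without the drug.

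Sterol genes were split, 13 of 21 higher and 7 lower. HMGCS1, an early enzyme, was lower (-1.33 ± 0.03), and INSIG1 and SC5D were higher by 0.82 ± 0.04 and 0.86 ± 0.05. Without the drug these 3 genes were -1.19 ± 0.03, -0.46 ± 0.03 and 0.58 ± 0.05. ER chaperones were higher in 13 of 15 both with (median 0.55) and without (median 0.49) carboplatin, and the interaction was called for 12 of the 15, 9 positive and 3 negative. HSPA5, the chaperone BiP, had 1247, 1228 and 1225 CPM in wt carbo and 2332, 2381 and 2405 CPM in cis carbo (0.94 ± 0.02), with an interaction of 0.28 ± 0.03. Of the 13 mitochondrially encoded genes edgeR called 0, and 0 had an unadjusted p under 0.05, while DESeq2 called 2.

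**Figure D4:**
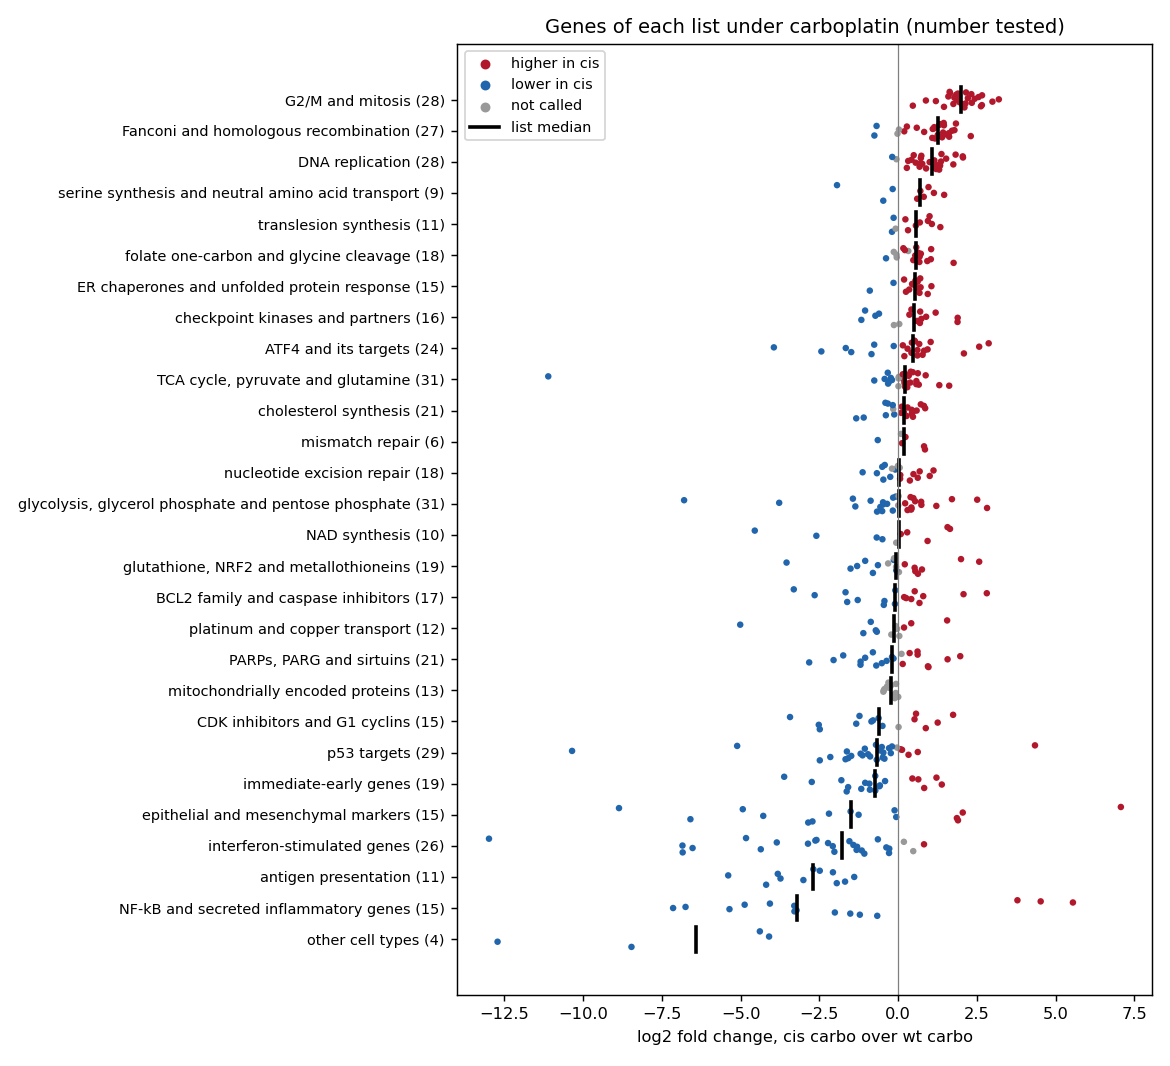
Log2 fold changes of cis carbo over wt carbo for each tested gene (point) of the lists with at least 4 tested members, with the number tested in parentheses. Black bars are list medians, red and blue mark genes called higher and lower in cis, and grey marks genes not called. The medians run from 1.99 for mitosis to -6.43 for the 4 genes of the list of other cell types.

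Interferon-stimulated genes and antigen presentation were lower in cis carbo. Of 26 interferon-stimulated genes tested 23 were called lower and 1 higher, with a median of -1.78, and all 11 tested genes of antigen presentation were called lower by at least 1, with a median of -2.69. Both lists were lower without the drug too, at -1.31 and -2.35 over the 26 and 12 genes tested there. The summed interferon list was 2629 ± 40.1 CPM in wt, 3665 ± 17.3 in wt carbo, 832 ± 5.53 in cis and 853 ± 7.07 in cis carbo. The gap was therefore wider with the drug, through the wt side, and the interaction was negative for 15 of 27 and positive for 2.

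BST2 (tetherin), an antiviral membrane protein, had 234, 238 and 225 CPM in wt carbo and at most 1 count in each cis carbo library, at least 1029-fold lower against 3 counts per library. OAS2, an antiviral synthetase, was at 52.8, 54.2 and 55.5 CPM in wt carbo and 0.566, 0.451 and 0.367 CPM in cis carbo (-6.84 ± 0.12). In the presentation list, B2M, the common light chain of MHC class I, was 1439 ± 11.4 CPM in wt carbo and 179.5 ± 5.16 CPM in cis carbo (-3.01 ± 0.02), and the immunoproteasome subunit PSMB9 11.6, 10.3 and 10.9 CPM in wt carbo and 0.623, 0 and 0.0612 CPM in cis carbo. HLA-B, whose reads may be shared with other HLA genes and whose exons overlap other annotated genes over 45.3% of their length, was -4.19 ± 0.07.

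The interferon response element was sought as GAAA, any 2 bases and GAAA, on both strands of the same 250 bases. It was found in 13 of the 21 interferon-stimulated genes with an entry (61.9%) and in 6 of 12 genes of antigen presentation (50%), against 3.07% of all 27305 promoters. Here too the shares describe the genes chosen for the lists and not the contrast. BST2, IFI27 and IFITM1 had the largest decreases in cis carbo among members with a match, and their promoters are shown with the matched letters in capitals. In BST2 both matches overlap. Their GRCh37 positions are chr19:17516440-17516689 on the minus strand, chr14:94576832-94577081 on the plus strand and chr11:313790-314039 on the plus strand.
BST2: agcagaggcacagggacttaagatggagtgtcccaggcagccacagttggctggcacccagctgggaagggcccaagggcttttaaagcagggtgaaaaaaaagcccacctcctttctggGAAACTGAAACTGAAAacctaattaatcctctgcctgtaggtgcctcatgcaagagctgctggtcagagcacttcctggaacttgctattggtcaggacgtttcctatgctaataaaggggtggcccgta
IFI27: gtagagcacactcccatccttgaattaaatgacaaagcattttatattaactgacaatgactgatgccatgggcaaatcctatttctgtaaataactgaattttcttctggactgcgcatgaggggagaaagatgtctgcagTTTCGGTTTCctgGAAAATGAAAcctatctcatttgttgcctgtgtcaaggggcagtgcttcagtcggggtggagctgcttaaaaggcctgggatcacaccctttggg
IFITM1: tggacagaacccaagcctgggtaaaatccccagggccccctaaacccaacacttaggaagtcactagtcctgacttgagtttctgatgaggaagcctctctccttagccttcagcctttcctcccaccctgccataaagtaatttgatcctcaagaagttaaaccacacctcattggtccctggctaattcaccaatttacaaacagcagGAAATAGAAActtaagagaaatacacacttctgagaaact

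IFI27 had 8.44, 7.47 and 8.32 CPM in wt carbo and 1 count in each cis carbo library, at least 35.8-fold lower against 3 counts per library. IFITM1, a membrane protein that restricts virus entry, was 134, 132 and 126 CPM in wt carbo and 1.53, 1.5 and 1.22 CPM in cis carbo (-6.52 ± 0.08). Both were as low in untreated cis cells, at 0.0357 ± 0.031 and 0.92 ± 0.163 CPM.

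Genes of NF-kB and secreted inflammatory factors had the largest median interaction of the lists in absolute size (-2.88, against 0.02 over all genes). All 15 tested were called (against 81.9% of all genes), 12 lower and 3 higher in cis carbo, with a median of -3.22. Without the drug only 10 passed the filter on low counts, 5 higher and 2 lower in cis, with a median of 0.06. Those that passed in 1 fit alone did so through the group in which they were high. The interaction was negative for 13 of 15 and positive for none. With at least 10 counts required in every library 9 of the genes were called.

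LIF, a cytokine of the interleukin-6 family, had 342, 323 and 325 CPM in wt carbo and 35.1, 30 and 35.4 CPM in cis carbo (-3.30 ± 0.04), with 19.6 ± 1.23 CPM in wt and 16.2 ± 0.445 CPM in cis. Only the wt carbo libraries were high. The chemokine CX3CL1 was 20.9, 17.8 and 17.9 CPM in wt carbo and at most 3 counts per library in the other 3 groups, at least 83.6-fold lower in cis carbo. TRAF1, a signalling adaptor, was 21.7, 21.9 and 19.9 CPM in wt carbo and 0.113, 0.301 and 0.184 CPM in cis carbo. The inhibitor of NF-kB NFKBIA, itself an NF-kB target, was 206 ± 6.94 CPM in wt carbo and 51.4 ± 1.08 CPM in cis carbo (-2.01 ± 0.03).

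The 3 genes of this list that were higher in cis carbo encode secreted proteins. MMP1, interstitial collagenase, had 206, 204 and 203 CPM in wt carbo and 4738, 4664 and 4736 CPM in cis carbo (4.53 ± 0.02, edgeR adjusted p = 1.63e-72), with 28.4 ± 0.627 CPM in wt and 2336 ± 35 CPM in cis. Its level was thus higher with the drug in both lines, and the gap between them smaller (-1.83 ± 0.03 for the interaction). Stromelysin MMP3, its neighbour on chromosome 11, was 160.1, 162 and 155 CPM in wt carbo and 2209, 2173 and 2225 CPM in cis carbo (3.79 ± 0.02), and IGFBP7 0.0758 ± 0.028 and 3.95 ± 0.201 CPM. Through MMP1 and MMP3 the summed level of the list was higher in cis carbo (7268 ± 73.6 CPM) than in wt carbo (1770.2 ± 24.1 CPM), opposite to its median.

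An NF-kB site was sought as GGG, any 2 bases and TTTCC, on both strands. It was present in 7 of the 14 members with an entry (50%) and in 1.73% of all promoters, which again describes the choice of the list and not the contrast. TNFAIP3, NFKBIA and NFKB1 were the 3 tested members with a match, the other 4 having too few counts, and their promoters are shown with the matches in capitals, from chr6:138188146-138188395 on the plus strand, chr14:35873956-35874205 on the minus strand and chr4:103422266-103422515 on the plus strand (GRCh37).
TNFAIP3: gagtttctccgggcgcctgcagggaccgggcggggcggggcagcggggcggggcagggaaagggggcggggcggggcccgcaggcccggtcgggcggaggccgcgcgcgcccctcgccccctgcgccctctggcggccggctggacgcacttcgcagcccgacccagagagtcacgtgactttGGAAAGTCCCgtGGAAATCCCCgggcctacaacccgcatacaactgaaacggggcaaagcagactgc
NFKBIA: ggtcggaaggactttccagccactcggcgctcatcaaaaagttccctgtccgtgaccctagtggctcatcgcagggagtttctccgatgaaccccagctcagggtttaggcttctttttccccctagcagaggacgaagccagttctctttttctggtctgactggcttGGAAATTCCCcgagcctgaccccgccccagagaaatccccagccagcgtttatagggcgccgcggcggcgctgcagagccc
NFKB1: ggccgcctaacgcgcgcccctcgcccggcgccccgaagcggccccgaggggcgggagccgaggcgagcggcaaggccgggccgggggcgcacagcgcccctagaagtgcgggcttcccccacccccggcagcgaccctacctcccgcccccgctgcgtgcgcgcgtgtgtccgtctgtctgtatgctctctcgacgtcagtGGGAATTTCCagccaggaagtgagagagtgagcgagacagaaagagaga

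TNFAIP3 (A20), which terminates NF-kB signalling, measured 15.1, 15.5 and 14.1 CPM in wt carbo and 1.58, 1.28 and 1.65 CPM in cis carbo (-3.29 ± 0.13), and NFKB1, the gene of the p105 and p50 subunits, 166, 163 and 159 CPM in wt carbo and 106, 101 and 102 CPM in cis carbo (-0.66 ± 0.03). Neither differed between the lines by the test without the drug, at -0.19 ± 0.23 and -0.01 ± 0.03, and the interaction was called for both.

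Immediate-early genes were mostly lower in cis carbo, 14 of 19 against 5 higher (median -0.73). Without the drug only 17 passed the filter on low counts, IER3 not among them, with a median of 0.30. The medians thus cover unlike sets of genes. IER3, a stress-induced survival gene, was 5.24, 6.25 and 6.44 CPM in wt carbo and 0.736, 1.05 and 0.918 CPM in cis carbo, and the phosphatase gene DUSP5 was lower (-1.80 ± 0.09). EGR2 and KLF2, transcription factors, were higher by 1.39 ± 0.06 and 1.22 ± 0.12. JUN, a subunit of AP-1, was 8.69 ± 0.965 CPM in wt carbo and 15.6 ± 1 CPM in cis carbo, while without the drug wt had 0.595 ± 0.233 CPM and cis 11.2 ± 1.02 CPM.

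Markers of cell identity separated the lines by large amounts. Of 10 ovarian and Mullerian lineage markers only PAX2 was expressed enough to be tested, and SOX17, EMX2, MUC16, ESR1 and PGR had at most 3 counts in each of the 12 libraries, so these markers were at or near 0 in both lines. PAX2, a transcription factor of the Mullerian duct and kidney, had 187, 173 and 179 CPM in wt carbo and at most 1 count in any cis carbo library, at least 798-fold lower. The mesenchymal transcription factor TWIST1 was 150.2, 153 and 148 CPM in wt carbo and 0.283, 0.15 and 0.49 CPM in cis carbo, N-cadherin (CDH2) 195, 196 and 194 CPM in wt carbo and 10.1, 9.62 and 10.4 CPM in cis carbo (-4.28 ± 0.05), and vimentin (VIM) 3713 ± 70.8 and 1561 ± 67.8 CPM (-1.25 ± 0.03). Higher in cis carbo were SNAI1, a repressor of E-cadherin (2.05 ± 0.14), keratin KRT18 (1.90 ± 0.10), the junction gene OCLN (1.87 ± 0.15) and TWIST2, at 3.23, 4.36 and 3.37 CPM against 0, 0 and 0.0586 CPM in wt carbo. Over that list 4 of 15 were higher and 11 lower. The interaction was called for 9 of the 15, which is near the share of 57.6% over all genes. Without the drug the values were -4.07 ± 0.04 for CDH2, -0.77 ± 0.03 for VIM, 2.42 ± 0.15 for SNAI1, 1.17 ± 0.13 for OCLN and 4.76 ± 0.16 for KRT18, whose interaction was -2.85 ± 0.22.

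Markers of other cell types were checked in the same way. PTPRC, CD3E, CDH5 and HBB had at most 1 count in each of the 12 libraries, and CD14, LYZ, VWF and HBA1 were too low to be tested. The 4 fibroblast markers were present and all lower in cis carbo. COL1A1, collagen I, had 856, 863 and 856 CPM in wt carbo and 1.98, 3.16 and 2.33 CPM in cis carbo (-8.46 ± 0.05), and in untreated wt cells 163 ± 1.8 CPM. COL1A2, its partner chain, was 749, 775 and 751 CPM in wt carbo and at most 2 counts in each cis carbo library, at least 3363-fold lower. PDGFRA, the receptor of platelet-derived growth factor, was 198 ± 2.1 and 11.7 ± 0.884 CPM. Summed over the list, wt carbo ran from 1812 to 1844 CPM and cis carbo from 13.9 to 16.5 CPM, and the part of these transcripts in the other differences was not tested.

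The largest fitted differences under carboplatin were those of genes present in 1 line and near absent from the other. Of the called genes, 154 had at most 3 counts in each wt carbo library (112 of them protein-coding) and 635 had at most 3 counts in each cis carbo library (451 protein-coding). For such genes a fold is a lower bound, computed without counting error against 3 counts in the shallowest library of the group, and the fitted value depends on the prior count. The bicarbonate cotransporter SLC4A4 had 132, 144 and 137 CPM in cis carbo and at most 1 count per wt carbo library, at least 756-fold higher. TDO2, which breaks down tryptophan, was at 60.1 ± 2.32 CPM in cis carbo (at least 330.0-fold), and the glycosyltransferases GALNT14 and ST3GAL1 at 89.2 ± 1.94 and 66 ± 0.336 CPM (at least 489.6-fold and 362-fold). The prostaglandin receptor PTGER3 reached 81 ± 2.57 CPM (at least 445-fold), and the fatty acid translocase CD36 116, 109 and 121 CPM against 0.0541, 0 and 0.234 CPM in wt carbo. The lipid receptor PPARG, the peptidase gene ECEL1, the homeobox gene MNX1 and ARHGAP20 had no count in wt or wt carbo and 10.2, 13.4, 8.81 and 14.6 CPM in cis carbo.

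Among the genes with the lowest fitted values in cis carbo were RGS1, a regulator of G-protein signalling, at 201 ± 0.658 CPM in wt carbo and no count in cis carbo (at least 889.8-fold), and the inner-ear protein gene OTOA at 153 ± 4.55 CPM and no count (at least 678-fold). MEST, an imprinted gene, had 1019, 1016 and 996 CPM in wt carbo and 0.17, 0.0752 and 0.184 CPM in cis carbo (at least 4479.5-fold). The collagen gene COL6A3 was at 689 ± 3.29 CPM (at least 3053-fold), the caspase-1 regulator CARD16 at 100.5 ± 0.527 CPM (at least 445-fold), and the developmental transcription factor genes DLX6 and SOX9 at 91.3 ± 2.92 and 49.6 ± 2.45 CPM (at least 405-fold and 219.8-fold). These genes, together with BST2, COL1A2 and PAX2, made up the 10 lowest by fitted value, an order that differs from that of the lower bounds (highest for MEST), and all 20 genes of both sets had the same direction without the drug.

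The named genes with the largest positive interactions, ABCD2 and PYGM, were lower in wt carbo than in untreated wt cells. PYGM, muscle glycogen phosphorylase, was 19.5, 19 and 18.3 CPM in wt and 1.46, 2.19 and 1.87 CPM in wt carbo, with 0.307 and 0.378 CPM in cis and cis carbo, so the log2 fold change went from -5.93 ± 0.17 to -2.24 ± 0.32. ABCD2, a peroxisomal transporter, behaved likewise, at 11.2 and 1.35 CPM in wt and wt carbo. GPSM2, which orients the mitotic spindle, turned from lower in cis (-0.62 ± 0.07) to higher (1.78 ± 0.11), with 3.84, 5.04 and 4.63 CPM in wt carbo and 14.9, 17.5 and 14.4 CPM in cis carbo. RUNX3, a transcription factor gene with a large negative interaction, was 0.166, 0.276 and 0.367 CPM in wt, 22.5, 22.2 and 22.9 in wt carbo, 67, 68.6 and 69.4 in cis and 64.9, 64.2 and 60 in cis carbo, so the line difference shrank from 7.95 ± 0.12 to 1.48 ± 0.05. FBXO32, the ubiquitin ligase atrogin-1, was 9.25, 9.41 and 9.72 CPM in wt carbo and 2.04, 2.11 and 2.51 CPM in cis carbo (-2.09 ± 0.14), and 0.128 and 1.48 CPM in wt and cis without the drug, where each wt library had at most 3 counts. MICAL2, an actin-oxidising enzyme, had similar levels in 3 groups, 27.1 ± 0.175 CPM in wt carbo, 21.9 ± 0.797 in cis and 21.1 ± 1.68 in cis carbo, and 1.23 ± 0.216 CPM in wt.

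Position in the genome also separated the lines (GRCh37). Of 176 protein-coding genes on chromosome 13 with a mean of at least 50 counts, 137 were called lower in cis carbo and 30 higher, with a median log2 fold change of -0.75, while 249 of 375 on chromosome 8 were higher, with a median of 0.44. The medians without the drug were -0.92 and 0.43. The other chromosomes had medians between -0.08 and 0.22. In windows of 10 Mb with at least 20 such genes, the highest median was 1.32 on chromosome 8 from 80000001 to 90000000 (20 of 22 genes higher), at 1.25 without the drug, and the lowest were those of 4 adjacent windows of chromosome 1 from 80000001 to 120000000, at -1.31 to -0.91. PHGDH starts at 120191034, just beyond these 4 windows. On chromosome 8, CCNE2 lies in a window with 29 of 36 genes higher and 4 lower, which also holds TP53INP1, lower in cis carbo. NAPRT lies in one with 55 of 64 higher and 6 lower. On chromosome 20, CDC25B lies in the window from 1 to 10000000, with 46 of 52 genes higher and 3 lower. Its median was 0.73 with and 0.71 without the drug. GSTM1, higher in cis carbo, and GSTM2, lower, lie in 1 of the low windows of chromosome 1. The part of gene dosage in the values of these genes was not tested. Of 10 tested list members on chromosome 13, 7 were lower in cis carbo, among them RB1, ATP7B, ERCC5 and SUCLA2, and 3 were higher, among them ABCC4 (0.42 ± 0.04 with and 0.08 ± 0.03 without the drug), and the part of gene dosage in their values was not tested.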

How the data were processed

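The authors aligned the RNA-seq reads with STAR to GRCh37.p13 and counted them per gene with HTSeq on GENCODE 19, and they deposited raw counts for 57820 genes in 36 libraries. The labels' processing notes also name DESeq2. The strand setting and the handling of reads with several matches are not given in the sources used here, and values of paralogs and of overlapping genes are uncertain to that extent. Of 141 named genes, 68 overlap an exon of another annotated gene, 0 of them over 50% or more of their exon length. The 3 summary lines that name no gene were left out, of which reads on no feature came to 7.249% to 9.307% of a library. Symbols were taken from GENCODE v44lift37 for 55538 identifiers.

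Groups follow the labels. The deposited counts were filtered (filterByExpr), TMM-scaled and tested with edgeR 4.0.16 in R 4.3.3 (quasi-likelihood test with robust dispersions, Benjamini-Hochberg adjustment over all genes tested, threshold 0.05), over the 6 libraries for cis carbo against wt carbo, the 6 untreated ones for cis against wt, and all 12 for the interaction. The SE of a log2 fold change was its size divided by the square root of F. CPM were computed from the counts with TMM over the 12 libraries. With 3 against 3 libraries an exact test cannot go below p = 0.1. Lower bounds set the mean CPM of the higher group against 3 counts in the shallowest library of the other. They cover neither counting error nor the spread between libraries. Counts were also simulated with the common dispersion of 0.000815 and 50 genes changed at each size. The test of cis carbo against wt carbo recovered 40 at 0.3, 44 at 0.5 and 50 at 1 on the log2 scale. It made 11 false calls among 14446 genes. The simulation held neither the spread particular to a gene or library nor a majority of changed genes. Its recovery and false calls are therefore not error rates of the real comparison.

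The comparison and the 29 gene lists were chosen with earlier results of these data known. Named genes were a panel of 16 (serine, NAD and platinum genes), at most 2 called genes per list and direction with the largest change among those of 50 or more counts on average whose CPM ranges stayed apart, the 10 protein-coding genes with the largest change in each direction, and 5 genes per direction for the interaction and for reversed contrasts. Other genes were named for their known role after their values were seen. Alternatives tried were DESeq2 1.42.0, its size factors, total counts without TMM, other filters on low counts, fits over 12 and 36 libraries, protein-coding genes only, a threshold on fold change and each library left out in turn. Promoter sequences were RefSeq's. Some items are not reported here.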

Additional observations from a re-analysis of the deposited data

Results flagged for a closer look

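The contrast between the lines differed with and without carboplatin for 8807 genes by edgeR's test of the interaction, which also called each of the genes named here. The largest positive interactions among named genes, on the log2 scale, were those of ABCD2 (3.74), PYGM (3.69), CTNNA3 (3.46), MAPT (3.42) and PRDM16 (3.30). The largest negative ones were those of SLC34A2 (-7.43), C15orf48 (-6.97), CX3CL1 (-6.95), RUNX3 (-6.46) and TRAF1 (-6.25). The wt carbo libraries had at most 3 counts each of CTNNA3, MAPT and PRDM16, and the cis carbo libraries at most 4 counts each of ABCD2, SLC34A2, C15orf48, CX3CL1 and TRAF1, so the size of these values depends on the prior count of the fit.

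Among genes called in opposite directions with and without the drug, the largest positive interactions were those of GNG7 (2.89), GK (2.47), COL26A1 (2.44), GPSM2 (2.42) and AGMO (2.34), which were lower in cis without carboplatin and higher with it. The largest negative ones were those of CD82 (-5.81), FBXO32 (-5.57), MICAL2 (-4.51), RASD2 (-4.46) and TBC1D2 (-4.24), which were higher in cis without it and lower with it. TBC1D2, a regulator of membrane traffic, was 0.821 ± 0.397 CPM in wt, 13.4 ± 0.201 CPM in wt carbo, 1.4 ± 0.0859 CPM in cis and 1.24 ± 0.366 CPM in cis carbo. GK, glycerol kinase, was 6.23 ± 0.591, 0.855 ± 0.276, 2.83 ± 0.295 and 2.12 ± 0.207 CPM in the same groups.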

How the results depend on the processing

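With a log2 fold change of 1 or more in size also required, the called genes numbered 4543 in place of 12018 under carboplatin, 3549 in place of 11322 without it and 2174 in place of 8807 for the interaction, by the construction of that rule. In 1 fit over 36 libraries the interaction called 5240 genes, and the cause was not tested. Leaving out 1 library at a time gave 11794 to 12238 called genes under carboplatin, 11050 to 11380 without it and 8477 to 8722 for the interaction. The other alternatives gave 9992 (at least 10 counts in every library) to 13713 (no filter) genes under carboplatin, with 11177 by DESeq2. Total counts in place of TMM shifted the median of all genes by 0.0557, with 6329 genes higher and 5698 lower in cis carbo.

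Of the named genes' values, 0 changed sign with a call. ABCC1, ATF4, CCNE1, MICAL2, POLH, SLC38A2 and UBE2B were no longer called in the fit over 36 libraries, UBE2B also not with total counts or without cis carbo replicate 1 (library 16), and MTHFD2L not without cis carbo replicate 2 (library 17). At 10 counts in every library 9 members of the NF-kB list, 8 epithelial and mesenchymal markers and 2 markers of other cell types could still be called, since members near 0 in 1 line were then not tested. The mitochondrially encoded list had 2 called members without cis carbo replicate 1 and 1 without replicate 2, against 0 with all libraries. No paired analysis was possible because the labels give the libraries no replicate numbers shared between groups.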
